A study of Homo sapiens with 6 samples.

Results

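The kinesin motor genes of HCT-116 cells were taken from a deposited RNA-sequencing table as every row with a gene name that begins with KIF or KIFC and ends in a family number and, where there is one, a letter. This gave 40 rows of 27918, one for each of 40 genes, and 1 of them, the row of KIF2A, also carries the names IPO11 and LRRC70. HCT-116 is an established line of human colorectal carcinoma cells. Libraries were made from poly(A) RNA of cells transfected with 10 nM of a control GapmeR (GapNC, 3 libraries) or of a GapmeR against the long noncoding RNA CASC9 (GapC9, 3 libraries), both with the same lipid transfection reagent, Lipofectamine. A GapmeR is a short antisense oligonucleotide that directs RNase H to the RNA it pairs with. The cells were harvested after 24 h by one statement of the study and after 48 h by another. The labels do not say that replicates were separate cultures, so p-values measure the spread between these libraries, which may be technical.

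Kinesins are ATP-driven motors that step along microtubules, most of them toward the plus end and those of the KIFC group toward the minus end. One set works on the spindle: its members slide and crosslink spindle microtubules, shorten them, push chromosome arms, or build the midzone and the midbody on which cytokinesis depends. Genes of this set are known to be transcribed mainly in G2 and M phase in dividing cells. Another set carries vesicles, endosomes, mitochondria and other cargo in cells of every phase, and a smaller set acts at the cilium and the centriole or has other roles. The rows were therefore described as 14 mitotic kinesins, 17 transport kinesins and 9 ciliary and other kinesins. KIF2B and KIF6 were not analysed here.

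Promoter sequence is shown because most mitotic kinesins are known to follow the cell cycle, while their levels here did not move together. The 250 bases upstream of the RefSeq start site (GRCh38.p14) were given for 32 of the 40 genes and were searched on both strands for CCAAT, the core of the NF-Y site (ATTGG on the other strand), and for TTTGAA, the core of the cell cycle homology region (TTCAAA on the other strand). In the stretches printed here no base belongs to both motifs. Each kinesin was counted with 1 promoter, whereas the set of all promoters was not reduced to 1 per gene. CCAAT was found in 11 of 14 mitotic kinesins (78.6%), 3 of 12 transport kinesins (25%), 2 of 6 ciliary and other kinesins (33.3%) and 32.0% of all 35116 promoters. TTTGAA was found in 5 of 14 mitotic kinesins (35.7%), 1 of 12 transport kinesins (8.3%), 0 of 6 others and 13.3% of all promoters. Both lay in 4 mitotic promoters (28.6%), those of KIF4A, KIF11, KIF18A and KIF23, in the promoter of the transport gene KIF5B, and in 4.7% of all promoters. KIFC1 had CCAAT 2 times and no TTTGAA, and KIF2A and KIF2C had neither. Parts of 4 mitotic promoters follow, 5′ to 3′ on the strand of the gene, with the motifs in capitals. KIF4A lies on the plus strand (chrX:70290021-70290100), KIF11 on the plus strand (chr10:92593052-92593129), KIF22 on the plus strand (chr16:29790660-29790714) and KIF18B on the minus strand (chr17:44947776-44947853).
KIF4A: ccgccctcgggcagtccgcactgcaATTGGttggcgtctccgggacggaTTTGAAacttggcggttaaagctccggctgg
KIF11: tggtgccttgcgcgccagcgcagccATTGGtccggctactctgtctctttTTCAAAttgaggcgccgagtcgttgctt
KIF22: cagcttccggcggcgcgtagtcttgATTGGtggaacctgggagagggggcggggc
KIF18B: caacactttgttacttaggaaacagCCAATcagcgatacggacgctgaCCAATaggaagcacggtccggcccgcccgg
A match is a description of these letters and not a bound site. By the GENCODE annotation, the stretches around the motifs of KIF15, KIF18A, KIF23 and KIFC1 lie wholly in exons, as do 77 of 82 bases for KIF20A and 11 of the 80 printed for KIF4A.

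Expression was deposited as FPKM, fragments per kilobase of transcript scaled to the mapped fragments of the library, so that levels can be set side by side between genes per length. The targeted RNA goes against the labels: in the libraries labelled GapNC, CASC9 was at 0, 0.0108 and 0 FPKM, and in those labelled GapC9 it was at 0.0528, 0.107 and 0 FPKM, the worth of a few fragments at most (two-sided exact permutation p = 0.4, the smallest that 3 against 3 allows being 0.1). Every direction below is therefore a direction between libraries labelled GapC9 and GapNC. Depth was 22.7 to 24.4 M (mega) fragments a library if the commonest step between low values is 1 fragment, and 1 fragment on 1 kb is then 0.0410 to 0.0440 FPKM. Of 6 markers of the colorectal epithelium the keratins KRT8 and KRT18 reached 316 to 480 FPKM in each library. CDX2 stood at 1.59 to 3.79 FPKM and VIL1 at 0 to 0.0481 FPKM. The summed level of the 6 markers was 744.2 to 994.2 FPKM in GapNC and 770.8 to 978.8 FPKM in GapC9, most of it KRT8 and KRT18. The summed level of 4 markers of other cells (PTPRC, PECAM1, COL1A1, ALB) was 1.1 to 1.6 FPKM in GapNC and 1.1 to 1.3 FPKM in GapC9, nearly all of it COL1A1.

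Most kinesins were expressed, and few of them differed between the groups. Rows averaging 0.1 FPKM or more were kept, which left 35 of the 40 to be tested with limma on log2(FPKM + 0.1), 13 mitotic, 16 transport and 6 ciliary and other. The added 0.1 makes the change of weakly expressed genes look smaller than it is. Only KIF4A and KIFC1, both mitotic, passed an adjusted p of 0.05, and both were lower in the libraries labelled GapC9. No kinesin passed it upward, whereas 2 were above at an unadjusted p under 0.05. Over all 16028 rows tested, 5.1% were lower and 1.89% higher at the adjusted threshold, so that 2 of 35 is near that share. By a second rule after the thresholds of the study (a ratio of mean FPKM of at most 0.5 or at least 2 and an unadjusted p under 0.05), KIF4A and KIF12 were lower and no kinesin was higher, beside 4.32% and 2.1% of all rows. At an unadjusted p under 0.05, 11 kinesins were lower and 2 higher, beside 16.8% and 9.09% of all rows. All 3 GapC9 values lay below all 3 GapNC values for 13 kinesins and above them for 2, beside 21.6% and 12.6% of all rows. The median log2 fold change of the 35 kinesins was -0.12, with 25 below 0, against -0.08 over all rows. The lower share of all adjusted calls was 72.9% and fell to 46.2% with libraries scaled to a common median, 53.0% with a correction for GC content and 59.8% with quantile normalization. Median scaling moved the median of all rows from -0.0762 to 0.0575.

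The mitotic kinesins were present at 3.7 to 28.8 FPKM in the mean of the 6 libraries, apart from KIF4B. KIF4A and KIFC1 fell, and the other 11 tested rows did not pass the adjusted test, among them the motors that act beside KIF4A in the midzone. The median log2 fold change of the 13 rows was -0.05, and its sign was not fixed: it was 0.10 with median scaling, 0.02 with quantile normalization and 0.04 with the GC correction. Their summed level was 215.1, 201.2 and 197.0 FPKM in GapNC and 187.4, 181.6 and 173.8 FPKM in GapC9, with no overlap. Without KIF4A and KIFC1 the sums were 164.5, 157.9 and 156.9 FPKM in GapNC and 160.7, 156.9 and 151.0 FPKM in GapC9, which overlap. In bulk libraries fewer cells of a type and less RNA in each cell cannot be told apart.

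KIF4A is a chromokinesin that binds PRC1 and limits the length of midzone microtubules in anaphase. Its row covers chrX:70290090-70420832 on the plus strand (GENCODE coordinates of GRCh38, 2 annotated transcripts, protein coding). It stood at 18.6, 17.6 and 16.7 FPKM in the 3 GapNC libraries and at 8.96, 8.71 and 7.12 FPKM in the 3 GapC9 libraries. The highest GapC9 value was thus well under the lowest GapNC value, and the libraries within each group were close together. The means were 17.6 ± 0.957 and 8.27 ± 1.0 FPKM (SD, n = 3 each), so that the level fell by 53.1%, a log2 fold change of -1.09 (SE 0.12, limma adjusted p = 0.0166). KIF4A is also in the list of changed genes that the study drew from these same libraries, which is not independent evidence. Left without GapNC replicate 1 the adjusted p was 0.0333, and without GapNC replicates 2 and 3 it was 0.0678 and 0.0553. Without GapC9 replicates 1, 2 and 3 it was 0.0586, 0.0743 and 0.0668. The log2 fold change stayed between -1.15 and -0.99 in these 6 fits, in which the rows called lower over the whole table numbered 16 to 570 in place of 817. With median scaling it was -0.94 (adjusted p = 0.022), and the ratio of means no longer passed the second rule, nor did it without GapC9 replicate 3.

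Sequence neighbours of KIF4A could share its fragments. KIF4B, an intronless gene whose transcript was 95.2% identical to that of KIF4A over 4348 bases, was listed at 0, 0.00977 and 0 FPKM in GapNC and at 0.00952, 0.0235 and 0.00965 FPKM in GapC9. It lay below the filter and was not tested. On the opposite strand, exons of KIF4A overlap exons of PDZD11, and the sources used here do not say whether reads were counted by strand. Such overlaps are annotated for 17 of the 40 kinesins. PDZD11 itself was at 10.7, 11.1 and 11.8 FPKM in GapNC and at 11.3, 7.76 and 10.7 FPKM in GapC9 (log2 fold change -0.19, SE 0.16, adjusted p = 0.517).

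KIFC1 (HSET) is a minus-end motor that focuses spindle poles and clusters extra centrosomes. Its row covers chr6:33391536-33409924 on the plus strand. It stood at 32.0, 25.8 and 23.4 FPKM in GapNC and at 17.8, 16.0 and 15.7 FPKM in GapC9, again with no overlap, but with more spread in GapNC than KIF4A. The means were 27.0 ± 4.43 and 16.5 ± 1.13 FPKM (SD, n = 3 each), a log2 fold change of -0.70 (SE 0.14, limma adjusted p = 0.0446). This call was near the threshold. The adjusted p was 0.0742 with no filter on low rows, 0.0619 with median scaling, 0.0625 without the variance trend and 0.00964 with the GC correction, where the log2 fold change shrank to -0.47. Without GapNC replicates 1, 2 and 3 it was 0.0488, 0.112 and 0.0724, and without GapC9 replicates 1, 2 and 3 it was 0.0991, 0.152 and 0.141. The GC correction called 1243 rows of the whole table lower, in place of 817. An exon of the ribosomal pseudogene RPL12P1 overlaps KIFC1 on the opposite strand.

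The remaining mitotic motors are best read by role. KIF22 and KIF2C were the most abundant mitotic kinesins. KIF22 (Kid), which pushes chromosome arms away from the poles, stood at 35.2, 28.2 and 25.6 FPKM in GapNC and at 30.2, 28.2 and 25.6 FPKM in GapC9 (log2 fold change -0.07, 95% interval -0.43 to 0.28, adjusted p = 0.797). KIF2C (MCAK), which depolymerizes microtubule ends at the kinetochore, stood at 30.9, 26.8 and 25.5 FPKM in GapNC and at 27.9, 26.3 and 25 FPKM in GapC9 (log2 fold change -0.07, 95% interval -0.33 to 0.20, adjusted p = 0.741). For both genes the groups overlapped and the intervals leave out a change as large as that of KIF4A.

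Of the midzone and cytokinesis motors other than KIF4A, KIF20A and KIF23 had narrow intervals and KIF20B a wide one. KIF20A (MKLP2), which carries the chromosomal passenger complex to the midzone, was at 22.4, 20.1 and 22.5 FPKM in GapNC and at 21.4, 20.9 and 20.6 FPKM in GapC9 (log2 fold change -0.05, 95% interval -0.27 to 0.17). KIF23 (MKLP1), the motor subunit of centralspindlin, was at 12.9, 15.2 and 15.9 FPKM and then at 15.4, 16.0 and 14.6 FPKM (log2 fold change 0.06, 95% interval -0.21 to 0.34). KIF14, which acts in cytokinesis with citron kinase, had a log2 fold change of 0.22 (95% interval -0.12 to 0.55) between means of 5.5 and 6.42 FPKM. KIF20B, which also acts at the end of cytokinesis, had one of 0.35 (95% interval -0.22 to 0.92) between 7.75 and 9.72 FPKM, and 0.12 without GapNC replicate 1. The groups overlapped for each of these 4 genes.

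Motors that build the bipolar spindle gave values on both sides of 0. KIF11 (Eg5), which slides antiparallel microtubules apart, was at 12.4, 15.8 and 17.3 FPKM in GapNC and at 14.8, 12 and 12.3 FPKM in GapC9 (log2 fold change -0.21, 95% interval -0.60 to 0.18). KIF15, which can stand in for KIF11, was at 2.81, 3.44 and 3.32 FPKM and then at 4.2, 4.69 and 3.73 FPKM. Of the 13 tested mitotic kinesins taken by name, only KIF15 had all GapC9 values above the GapNC values, beside 12.6% of all rows. Its log2 fold change was 0.39 (limma unadjusted p = 0.0322, adjusted p = 0.154). The GapC9 values of CENPE, a mitotic kinesin under another name, also all lay above (log2 fold change 0.42, limma unadjusted p = 0.0488, adjusted p = 0.19). CENPE comes from the list of spindle and midzone partners, where this held for 4 of 26 rows. Whether KIF11 and KIF15 differed from each other in their change was not tested. The length-controlling KIF18A and KIF18B had log2 fold changes of -0.02 and -0.12, and the depolymerase KIF2A, in the row joined with other genes, one of -0.05.

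**Figure D1:**
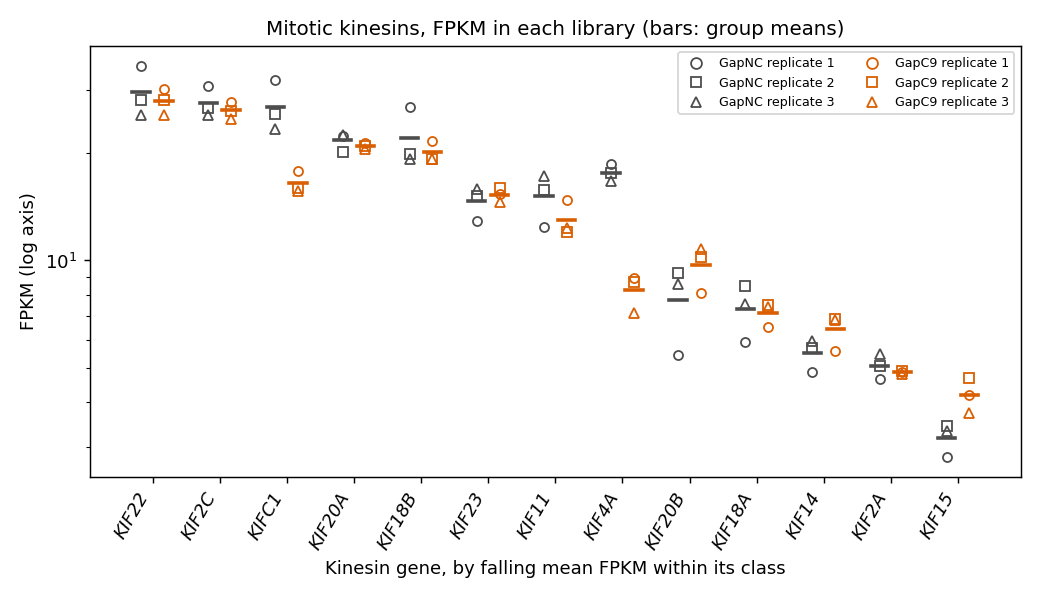
FPKM (log axis) of the 13 tested mitotic kinesins in each of the 3 GapNC libraries (grey) and the 3 GapC9 libraries (orange), with a bar at each group mean, in order of falling mean. The GapC9 points of KIF4A (7.12 to 8.96) and KIFC1 (15.7 to 17.8) lie apart from their GapNC points, whereas most other genes overlap.

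The transport kinesins covered a wider range of levels, 0.336 to 57.4 FPKM, and none of the 16 tested passed the adjusted threshold or the second rule in either direction. At an unadjusted p under 0.05, 5 were lower and 1 was higher, beside 16.8% and 9.09% of all rows. All GapC9 values lay below the GapNC values for 7 and above them for 1, beside 21.6% and 12.6% of all rows. The median log2 fold change was -0.21 with 11 of 16 below 0, and it was -0.06 with median scaling, -0.09 with quantile normalization, -0.06 with the GC correction and -0.12 without GapNC replicate 1. Summed FPKM was 111.0, 139.8 and 109.2 in GapNC and 128.4, 133.8 and 136.7 in GapC9, so that the groups overlapped.

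KIF5B alone carried much of that sum and had the highest level of any kinesin. It is the widely expressed heavy chain of conventional kinesin, which moves mitochondria, lysosomes and many other cargoes. It stood at 31.9, 60.7 and 39.1 FPKM in GapNC and at 64.9, 70.4 and 77.1 FPKM in GapC9. Every GapC9 value was above every GapNC value, but GapNC replicate 2 was close to the lowest of them. The means were 43.9 ± 15.0 and 70.8 ± 6.09 FPKM (SD, n = 3 each), a log2 fold change of 0.74 (SE 0.24, unadjusted p = 0.0223, limma adjusted p = 0.126), the largest positive value among the 35 kinesins, and not past the adjusted test. It was 1.0 without GapNC replicate 2 (adjusted p = 0.0708) and 0.53 without GapNC replicate 1 (adjusted p = 0.214). KIF5B made up 9.4%, 17.2% and 12.3% of the summed kinesin FPKM in GapNC and 19.9%, 21.8% and 24.3% in GapC9, where KIF4A made up 5.5%, 5.0% and 5.3% and then 2.8%, 2.7% and 2.2%. The other heavy chains, known mostly from neurons, were far lower. KIF5A was at 2.07 ± 0.0656 and 2.05 ± 0.0233 FPKM (SD, n = 3 each; log2 fold change -0.01) and KIF5C at 1.75 ± 0.211 and 1.24 ± 0.341 FPKM (log2 fold change -0.50, adjusted p = 0.235).

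KIF1C and KIF3B followed in level. KIF1C, a kinesin-3 motor of vesicle transport, was at 26.3, 28.4 and 18.7 FPKM in GapNC and at 16.3, 15.5 and 13.4 FPKM in GapC9. The groups did not overlap, although GapNC replicate 3 was nearer to GapC9 than to the other GapNC libraries (log2 fold change -0.68, SE 0.18, adjusted p = 0.0849). KIF3B, a subunit of the heterotrimeric kinesin-2 that also builds cilia, was at 16.4, 16.3 and 16.9 FPKM in GapNC and at 17.4, 17.8 and 16.7 FPKM in GapC9. These were the closest replicates among the abundant transport kinesins, and the log2 fold change of 0.06 had a 95% interval of -0.14 to 0.27 (adjusted p = 0.666). Its partner KIF3A was at 3.39 to 4.88 FPKM in GapNC and 3.84 to 5.99 FPKM in GapC9.

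Low-abundance members made up most of the transport kinesins with lower values in GapC9, as they did of the whole class. Only 3 of its 17 rows averaged 10 FPKM or more. The genes of this paragraph were chosen for their values after these were seen. KIFC2, a minus-end-type motor known from neurons, was at 8.6, 6.27 and 5.85 FPKM in GapNC and at 4.38, 3.77 and 3.35 FPKM in GapC9 (log2 fold change -0.82, SE 0.19, adjusted p = 0.0569). KIF16B, which moves early endosomes, was at 0.971, 1.16 and 1.14 FPKM and then at 0.705, 0.662 and 0.61 FPKM (log2 fold change -0.65, SE 0.14, adjusted p = 0.0523). Neither passed the adjusted threshold, and other settings moved them both ways. With the GC correction the adjusted p was 0.0168 for KIFC2, whose log2 fold change shrank to -0.46, and 0.0275 for KIF16B. That setting called 1243 rows of the whole table lower, in place of 817. With median scaling the adjusted p was 0.0751 and 0.0928, with no filter 0.0943 and 0.123, and with 1 library left out it reached 0.173 and 0.163. KIF17 and KIF13B were lower at an unadjusted p only, with log2 fold changes of -0.68 and -0.37 (adjusted p = 0.107 and 0.174), which were -0.36 and -0.19 with the GC correction. KIF5C and KIF13A also had no overlap between the groups. KIF1B, KIF3C, KIF21A, KIF21B and KIFC3 overlapped, with log2 fold changes between -0.21 and 0.20. KIF1A, a motor of synaptic vesicle precursors, was under 0.01 FPKM in every library and was not tested.

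The 9 ciliary and other kinesins were mostly at low levels, and 3 of them (KIF19, KIF25 and KIF26B) were below the filter, at 0 to 0.061 FPKM in every library. None of the 6 tested passed the adjusted threshold of limma. At an unadjusted p under 0.05, 4 were lower and 0 higher, beside 16.8% and 9.09% of all rows. The median GC content of the 6 was 57.7%, against 49.0% over all tested rows. Their median log2 fold change was -0.43 with 5 of 6 below 0, against -0.08 over all rows. It stayed negative with median scaling (-0.31), quantile normalization (-0.35) and the GC correction (-0.30). Only KIF12 passed the second rule. KIF12, a motor expressed in kidney and other epithelia, was at 0.649, 0.481 and 0.415 FPKM in GapNC and at 0.236, 0.128 and 0.23 FPKM in GapC9, the latter near the worth of a few fragments per kilobase. The ratio of its means was 0.385 and the log2 fold change -1.05 (SE 0.25, unadjusted p = 0.00596, adjusted p = 0.0642). With the GC correction it was -0.72 and no longer passed the second rule, and a filter at a mean of 1 FPKM left the gene out.

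KIF26A, an atypical kinesin without motor activity, was the most abundant of this set. It stood at 9.7, 7.31 and 7.19 FPKM in GapNC and at 6.86, 5.12 and 3.57 FPKM in GapC9, so that the groups did not overlap but were almost in contact (log2 fold change -0.66, SE 0.26, adjusted p = 0.18). Its transcript has a GC content of 68.3%, and its log2 fold change was -0.29 with the GC correction and -0.42 without GapC9 replicate 3. KIF24, which holds back cilium growth at the mother centriole, was at 1.48, 1.56 and 1.33 FPKM and then at 1.14, 1.08 and 0.999 FPKM (log2 fold change -0.41, SE 0.13, adjusted p = 0.118). KIF9, a kinesin of motile cilia, was at 1.0, 0.807 and 0.983 FPKM and then at 1.21, 1.3 and 0.8 FPKM (log2 fold change 0.20, SE 0.21, adjusted p = 0.59). The Hedgehog regulator KIF7 overlapped between the groups, with GapNC replicate 1 at 0.92 FPKM and the other libraries at 0.255 to 0.423 FPKM. Its relative KIF27 was at 0.379 to 0.466 FPKM in GapNC and 0.22 to 0.311 FPKM in GapC9.

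**Figure D2:**
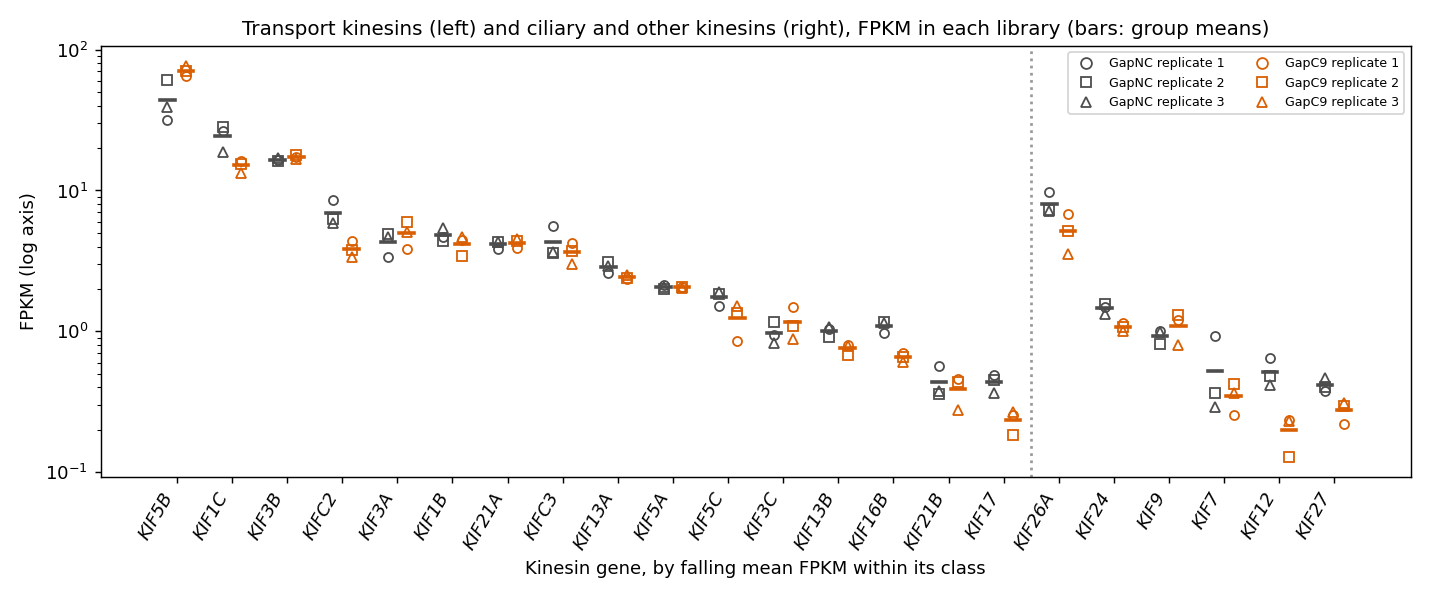
FPKM (log axis) of the 16 tested transport kinesins (left of the dotted line) and the 6 tested ciliary and other kinesins (right) in each library, GapNC in grey and GapC9 in orange, with a bar at each group mean. KIF5B, at 31.9 to 77.1, is the highest gene. Most genes with GapC9 points below the GapNC points lie under 10 FPKM, as do most of all genes shown.

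**Figure D3:**
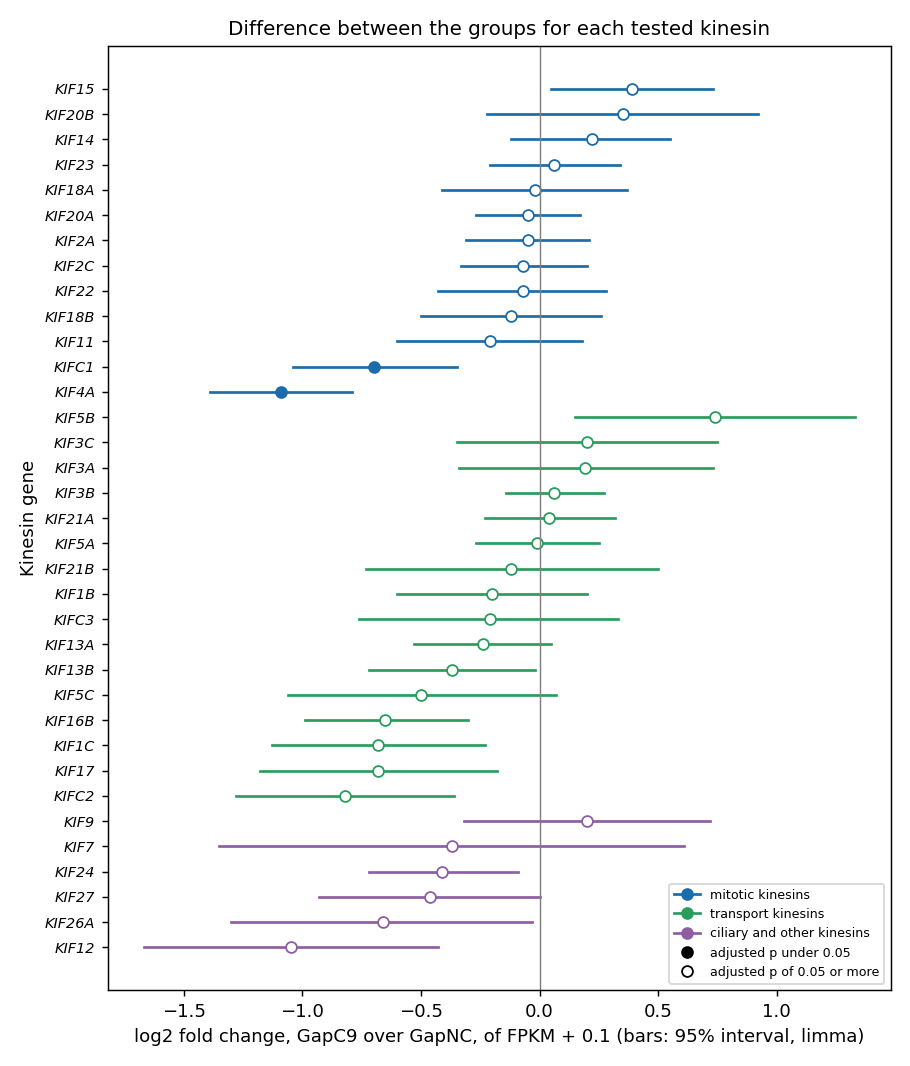
Log2 fold change of FPKM + 0.1, GapC9 over GapNC, for the 35 tested kinesins by class, with 95% intervals from limma. The filled points mark an adjusted p under 0.05, which were KIF4A at -1.09 and KIFC1 at -0.70, and the intervals of 10 of the other 11 mitotic kinesins include 0.

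The kinesin values moved with the GC content of their transcripts. Across the 35 tested kinesins the log2 fold change correlated with the GC content of the longest listed transcript at Pearson's r = -0.53 and Spearman's rho = -0.53. Over 15909 tested rows with a GC value these were -0.19 and -0.25. The points share the same 6 libraries and genes are not independent replicates, so no p is given. Of the 11 kinesins with a GC content of at least 55%, 10 had a negative fold change (median -0.37), against 15 of 24 below it (median -0.05). After each library was corrected for GC content, 6 of 11 and 12 of 24 were negative, the medians were -0.04 and -0.05, and the correlation among kinesins was r = -0.18 and rho = -0.13. The correction subtracts the trend with GC content over all rows, where r was 0.03 afterwards. A weaker trend among kinesins was thus largely built in. KIF4A, with a GC content of 46.4%, had -1.04 after the correction and KIFC1, at 57.9%, had -0.47, and both passed the adjusted threshold. More rows of the whole table passed it at that setting, 1243 lower and 1103 higher of 15909, in place of 817 and 303 of 16028. The part of GC content in the other lower values was not tested beyond this.

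**Figure D4:**
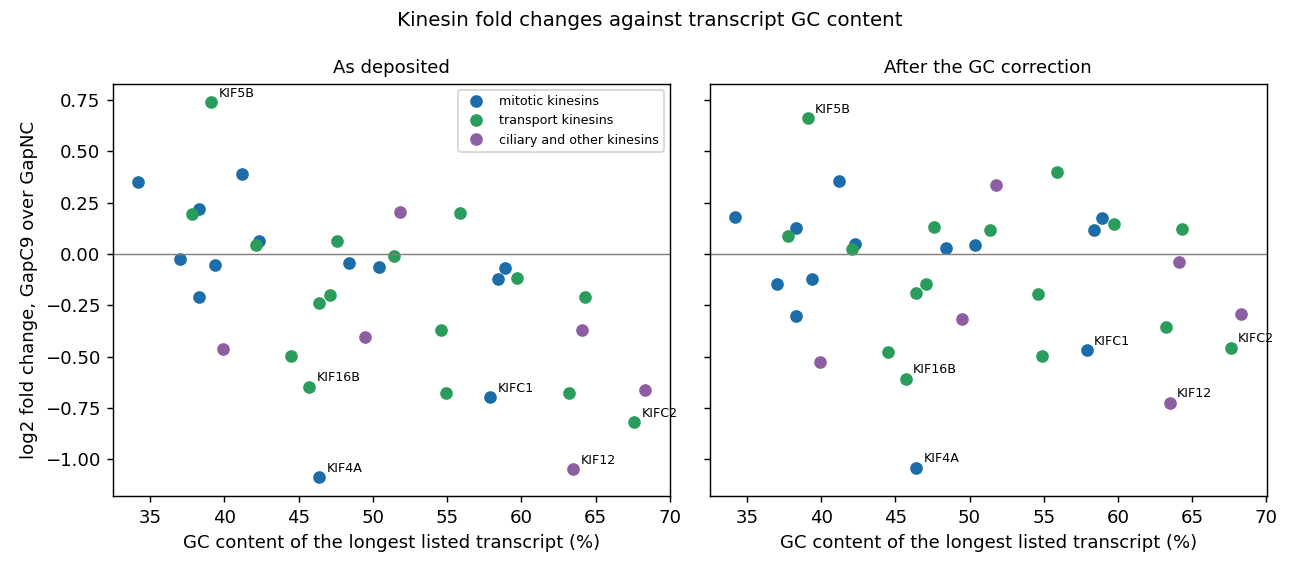
Log2 fold change, GapC9 over GapNC, of the 35 tested kinesins against the GC content (%) of the longest listed transcript, from the deposited values (left) and after each library was corrected for GC content (right), coloured by class. The downward slope on the left (r = -0.53) is weaker on the right (r = -0.18), while KIF4A stays at the bottom, at -1.09 and -1.04. The correction removes the trend over all rows by design.

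Proteins that work with mitotic kinesins were taken as a list of 26 spindle, midzone and mitotic regulator genes. The list also holds CENPE, itself a mitotic kinesin. Its PLK1 row is joined with DCTN5 and was counted again among the dynein and dynactin rows. Of the 26 rows, 1 fell at the adjusted threshold and none passed it upward, beside 5.1% and 1.89% of all rows. At an unadjusted p under 0.05, 3 were lower and 2 higher, beside 16.8% and 9.09% of all rows. Their median log2 fold change was -0.03. The row lower at the adjusted threshold was RACGAP1, which with KIF23 forms centralspindlin. RACGAP1 was at 26.4, 26.5 and 25 FPKM in GapNC and at 17.8, 15.7 and 19.6 FPKM in GapC9 (log2 fold change -0.55, SE 0.11, adjusted p = 0.0432). The call was lost with any 1 of the 6 libraries left out: the adjusted p was 0.0742, 0.116 and 0.0893 without GapNC replicates 1, 2 and 3, and 0.116, 0.135 and 0.0943 without GapC9 replicates 1, 2 and 3. PRC1, the crosslinker that recruits KIF4A, was at 26.7, 24.6 and 29.1 FPKM and then at 26.1, 28.1 and 26.8 FPKM (log2 fold change 0.01, 95% interval -0.23 to 0.25). PRC1 was picked for its tie to KIF4A after its values were seen. AURKB, likewise named after its values were seen, was at 26.4, 20.9 and 20.2 FPKM in GapNC. In GapC9 it was at 16.2, 14.7 and 15.4 FPKM (log2 fold change -0.53, SE 0.13, limma adjusted p = 0.0679). The most abundant of the list, CDC20, which activates the anaphase-promoting complex, had a log2 fold change of -0.34 (adjusted p = 0.226), and CCNB1, the mitotic cyclin, one of -0.28 (adjusted p = 0.112).

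Partners of the transport kinesins passed the adjusted threshold in neither direction. Of 21 tested cargo adaptors and light chains, 2 were higher and 3 lower at an unadjusted p under 0.05 (median log2 fold change -0.13). Over all rows, 9.09% were higher and 16.8% lower at that p. PLEKHM2, which links lysosomes to KIF5B, was among the most abundant and had a log2 fold change of -0.22 (adjusted p = 0.433). Dynein, the minus-end motor of cargo transport, and its activator dynactin had 26 tested rows (median 0.07). At an unadjusted p under 0.05, 1 was higher and 5 lower, beside the same 9.09% and 16.8% of all rows. The heavy chain DYNC1H1 had a log2 fold change of -0.15 (adjusted p = 0.419), and the light chain DYNLL2, at 30.6, 32.7 and 36.1 FPKM in GapNC and 41.6, 42.9 and 42.0 FPKM in GapC9, one of 0.35 (adjusted p = 0.0819). None of the 12 rows of alpha and beta tubulins, the track on which all these motors run, passed even an unadjusted p of 0.05. TUBA1B had a log2 fold change of 0.09 (adjusted p = 0.674). TUBB was at 540 to 571 FPKM in 5 libraries and at 110 FPKM in GapC9 replicate 1, so that its log2 fold change of -0.75 (SE 0.64, adjusted p = 0.505) became 0.04 without that library.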

How the data were processed

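The authors aligned paired-end reads of 6 HCT-116 libraries with HISAT, assembled and quantified them with StringTie and deposited FPKM in 1 table, without read counts. The submitters' processing notes list HISAT2 2.0, StringTie 1.3.0, Bowtie 0.12.2 and the mouse build mm8, and no human build is given in the sources used here. The assembly joins some neighboring genes in 1 row. The sources used here do not state a strand setting. All 6 value columns were used (0 unused).

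In R 4.3.3, limma 3.58.1 (lmFit, eBayes with a mean-variance trend) was fitted to log2(FPKM + 0.1) of the 16028 rows with a mean of at least 0.1 FPKM, all libraries in one fit, with Benjamini-Hochberg adjustment over all rows. A second rule asked for an unadjusted p under 0.05 together with mean FPKM values whose ratio was 2 or more, or 0.5 or less. Positions, GC content (27771 rows matched), overlaps and transcript identity came from GENCODE release 29 (GRCh38), promoters from RefSeq. The GC correction subtracted a lowess curve (span 0.3) from each library. Tables and figures were made in Python 3.11.15 with pandas 2.3.3 and matplotlib 3.10.9. As the table holds no counts, the counting error of a value is unknown.

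The members and gene lists were chosen with earlier results of these data known. Full statistics were given for kinesins past either rule, for KIF4A and for the 3 most abundant of each class, and in the partner lists for genes past either rule and the 2 most abundant, of which 1 gene is not reported here. Other genes are named with values where their role or value is described. Alternatives were pseudocounts of 1 and 0.01, a filter at 1 FPKM, no filter, rows listed at 0 left out, median scaling, quantile normalization, the GC correction, robust variances, limma without trend, a replicate block, rows with joined names left out, and each library left out.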

Additional observations from a re-analysis of the deposited data

How the results depend on the processing

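Over lists, rules and settings, 464 counts of called genes kept within 1.5 times of the value reported and 40 did not. Most of these counts were 0 in the reported fit and stayed 0, so the 464 do not measure how stable the calls were. At the adjusted threshold, only lower mitotic kinesins (2) and lower spindle and midzone partners (1) were above 0. By the second rule, only lower mitotic kinesins (1) and lower ciliary and other kinesins (1) were. Calls near the threshold moved both ways. Mitotic kinesins lower at the adjusted threshold numbered 2, and 1 with no filter, with median scaling or without trend. Leaving out 1 library gave 0 to 2 of them, and 0 to 1 by the second rule, which was also 0 with median scaling. Transport kinesins lower at the adjusted threshold numbered 0, and 1 with a pseudocount of 0.01, with a filter at 1 FPKM or without trend, and 2 with rows listed at 0 left out or with the GC correction. By the second rule they numbered 0 to 1 with 1 library left out (KIF17 without GapNC replicate 3). Ciliary and other kinesins lower at the adjusted threshold numbered 1 with rows listed at 0 left out, and by the second rule 0 with a filter at 1 FPKM or the GC correction. Spindle and midzone partners lower at the adjusted threshold numbered 0 with no filter, median scaling, quantile normalization, without trend or with any 1 library left out, and 3 with the GC correction, which also gave 1 higher. Adaptors higher numbered 1 with a filter at 1 FPKM or median scaling and 2 with the GC correction. Dynein and dynactin rows numbered 1 higher with median scaling or the GC correction, 1 lower with the GC correction, and 0 to 1 higher by the second rule with 1 library left out. The causes were not tested.

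Values near 0 changed sign. KIF22 was 0.08 with median scaling, 0.18 with the GC correction and 0.06 without GapNC replicate 1, and KIF2C was 0.08, 0.04 and 0.01 in the same order. With 1 library left out KIF22 ranged from -0.17 to 0.06, KIF2C from -0.12 to 0.01 and TUBB from -1.15 to 0.04. PLEKHM2 was 0.09 with the GC correction, and DYNC1H1 0.00 with median scaling.

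The labels share replicate numbers between the groups. Deviations of libraries with the same number correlated at 0.097, 0.0398 and 0.0243, and those with different numbers at -0.093 to 0.0578. The 0.0578 was that of GapNC replicate 3 and GapC9 replicate 2. Whether the same number marks libraries handled together is not stated by the labels and was not tested. With the replicate block, 0 rows of the whole table passed the adjusted threshold, 0 mitotic kinesins and 0 spindle and midzone partners among them, and the adjusted p of KIF4A was 0.0608. By the second rule the block gave 672 rows lower and 328 higher. At an unadjusted p under 0.05 it gave 2952 lower and 1618 higher, in place of 2700 and 1457. Over all rows, the rows lower at the adjusted threshold numbered 346 with no filter, 437 with median scaling, 516 with quantile normalization, 1243 with the GC correction and 16 to 570 with 1 library left out, in place of 817. The higher rows numbered 146, 508, 347, 1103 and 16 to 240 in the same order, in place of 303. Low kinesins rest on few fragments, which limits KIF12 and KIF17 most.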
